A study of Mus musculus with 28 samples.

Results

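Caveolins and cavins are the coat proteins of caveolae, and 8 genes were followed here: the caveolins Cav1, Cav2 and Cav3, the cavins Cavin1, Cavin2 and Cavin3, and the membrane-shaping accessory genes Ehd2 and Pacsin2. They were taken by symbol from the 45706 genes listed in both expression tables, and all 8 were found. The set was chosen by function with the TPM levels of these libraries already known, so the levels are given as a description. No p-value is printed for a member. Where members are said to pass a p threshold, this is also a description, given beside the share of all genes, and no support for a conclusion about the set. The 28 libraries came from mIMCD-3 cells, an epithelial line that derives from the renal inner medullary collecting duct of an SV40 transgenic mouse, with 4 libraries in each of 7 lines. These lines were the uncloned polyclonal WT culture, the monoclonal line WT5 grown from a single sorted cell, and subclones 1 to 5, each grown from a single sorted WT5 cell. None of these lines carried a genome edit, no agent was given, and RNA was taken 4 days after the cells had become confluent. WT5 and each subclone are thus single clones, and the sources differ on whether libraries of the same line are biological or technical replicates, so the errors given here measure only the spread between libraries.

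Caveolae are small flask-shaped pits of the plasma membrane that flatten when the membrane is stretched. Caveolin-1, which most cell types use, or caveolin-3, which takes its place in striated muscle, forms oligomers in the inner membrane leaflet, caveolin-2 joins caveolin-1, and cavin-1 covers them as a peripheral coat to which the other cavins bind. EHD2, an ATPase, sits at the neck and holds caveolae at the surface, and pacsin-2 is an F-BAR protein that bends the membrane there. The comparisons ask how far wild-type cells of one line differ from each other once clones are isolated.

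The labelled epithelial identity was checked against 6 markers (Epcam, Cdh1, Krt8, Krt18, Krt19 and Cldn4), of which 6 had a mean of at least 1 TPM in every line. Their summed level was between 1805 and 2102 TPM in polyclonal WT cells, 4033 and 4190 in WT5, and 2383 and 3122 in the subclones. It was highest in WT5, as Cav1 was, but among the subclones its order differed from that of Cav1, and subclone 4 (2576 to 2633 TPM) lay within the range of subclone 2. Of these markers, Cdh1, the gene of E-cadherin, went the other way, from 145 TPM in polyclonal WT cells to 97.6 TPM in WT5. The part of these markers in the differences below was not tested. Of 9 collecting duct markers, 5 reached 1 TPM in polyclonal WT cells and 2 or 3 in the other lines. Aqp2, the vasopressin-regulated water channel that defines the principal cell, was listed at 0 in every library of every line. Endothelium, fibroblast, adipocyte and muscle are cell types rich in caveolae, and the summed markers of each were at most 1.33, 2.12, 0.1 and 2.98 TPM. In bulk RNA, fewer cells of a type and less RNA per cell cannot be told apart. Levels are given in TPM (a length-scaled share of all transcripts), which has the same total in every library, so the depth behind a value is unknown and genes can be set side by side.

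Cav2 and Cav1 are neighbours on mouse chromosome 6 in GRCm38, at chr6:17281185-17289115 and chr6:17306335-17341452, both on the forward strand and 17219 bases apart. The sequences directly before their start sites are shown because both genes were low in 1 subclone, described below. Whether these sequences bear on that level was not tested. They are the 250 bases before the RefSeq start on GRCm38.p6, for Cav1 before the upstream one of 2 listed starts, with capitals marking matches to the GC box (GGGCGG) or the TATA box (TATAAA) on either strand.
Cav1 (chr6:17306085-17306334, forward strand): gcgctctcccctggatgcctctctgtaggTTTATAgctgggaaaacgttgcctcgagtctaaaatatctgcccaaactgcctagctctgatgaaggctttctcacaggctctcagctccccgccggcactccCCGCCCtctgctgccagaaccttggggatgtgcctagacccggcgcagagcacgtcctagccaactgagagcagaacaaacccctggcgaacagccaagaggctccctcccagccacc
Cav2 (chr6:17280935-17281184, forward strand): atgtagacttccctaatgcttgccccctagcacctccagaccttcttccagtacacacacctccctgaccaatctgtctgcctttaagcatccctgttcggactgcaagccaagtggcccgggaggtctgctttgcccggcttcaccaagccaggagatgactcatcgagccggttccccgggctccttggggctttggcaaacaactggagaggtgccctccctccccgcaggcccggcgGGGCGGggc
In the Cav1 sequence, the TATA box match lay on the reverse strand 221 to 216 bases before the start and the GC box match on the reverse strand 118 to 113 bases before it. The Cav2 sequence held a GC box match on the forward strand 9 to 4 bases before the start. A GC box was present in 32.7% and a TATA box in 12.4% of the 32851 RefSeq windows of this length, and matches are given as a description. Neither sequence held the TEAD motif GGAATG (12.6% of windows), the E box CACGTG (6.02%) or a CArG box (1.47%) on either strand.

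Cav1, the main structural caveolin outside striated muscle, was the member with the widest range between lines. In polyclonal WT cells it measured 28.37, 29.5, 29.35 and 30.42 TPM. In WT5 it measured 205.14, 194.73, 228.92 and 209.2 TPM. The mean was 7.12-fold higher in WT5, at 209 TPM ± 14.3 (SD, n = 4) against 29.4 TPM ± 0.839 (SD, n = 4), and the lowest WT5 library stood far above the highest polyclonal one. Subclone 1 had 133.85, 132.96, 117.51 and 116.93 TPM. Subclone 2 had 126.48, 110.43, 117.92 and 119.85 TPM. Subclone 5 had 111.5, 133.62, 134.75 and 143.65 TPM. The libraries of these 3 subclones overlapped each other, and all were below every WT5 library. Subclone 3 had 113.39, 83.74, 102.22 and 100.54 TPM, and its highest library overlapped the lower ones of subclones 2 and 5. Subclone 4 had 59.56, 63.3, 64.48 and 58.75 TPM. In the order of means, WT5 (209), subclone 5 (131), subclone 1 (125), subclone 2 (119), subclone 3 (99.97), subclone 4 (61.5) and polyclonal WT cells (29.4), only the neighbours from subclone 5 to subclone 3 overlapped, while WT5, subclone 4 and polyclonal WT cells were each set apart. The share of all genes with such an order was not computed.

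Cav2, which assembles with caveolin-1, followed another order. It measured 62.76, 56.82, 57.6 and 62.07 TPM in polyclonal WT cells. WT5 had 113.24, 117.92, 121.9 and 115.43 TPM. The polyclonal mean of 59.8 TPM ± 3.04 (SD, n = 4) was thus 0.511-fold that of WT5, 117 TPM ± 3.71 (SD, n = 4), without overlap. Subclones 1, 2 and 3 ranged from 110.02 to 145.66 TPM around the WT5 level. Subclone 5 was the highest line, with 175.97, 151.85, 159.41 and 143.02 TPM and a mean of 158 TPM ± 14.0 (SD, n = 4). Its lowest library lay below the highest of subclone 3, so these neighbours overlapped, but every subclone 5 library lay above every WT5 library, as in 9.96% of all genes tested. Subclone 4 was the lowest subclone, with 63.19, 67.65, 70.67 and 71.7 TPM. Its mean of 68.3 TPM ± 3.82 (SD, n = 4) was 1.14-fold that of polyclonal WT cells, with the lowest subclone 4 library just above the highest polyclonal one. How many of all genes separate subclone 4 from polyclonal WT cells was not computed.

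Cav3, the muscle caveolin (chr6:112459505-112472872), was listed at 0 in 27 of the 28 libraries and at 0.04 TPM in WT5 replicate 1. The muscle markers were low as well, at the level given above.

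**Figure D1:**
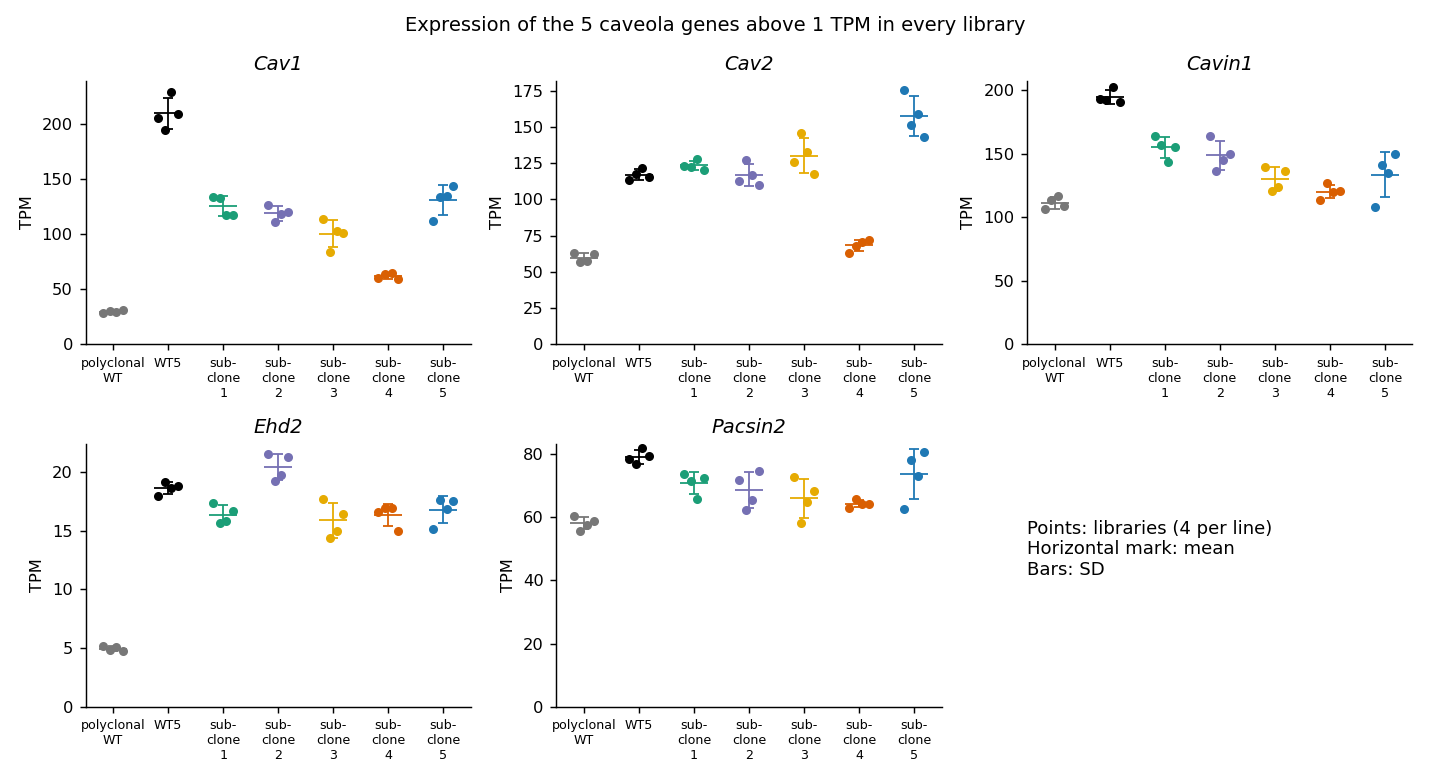
TPM of Cav1, Cav2, Cavin1, Ehd2 and Pacsin2 (vertical axes, linear from 0) in the 7 lines (horizontal axes), with 1 point per library, a mark for the mean and bars for the SD (n = 4). Cav1 and Cavin1 are highest in WT5, and subclone 4 is the lowest subclone for Cav1 and Cav2. Polyclonal libraries lie below all others for Cav1, Cav2 and Ehd2, and the share of all genes that do so was not computed. For Ehd2 the polyclonal mean is 4.95 TPM, against means of 15.9 to 20.5 TPM in the other lines.

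Cavin1, the cavin without which caveolae do not form (chr11:100956733-100970887, reverse strand), was the most evenly expressed coat gene. Polyclonal WT cells had 106.13, 113.64, 116.54 and 108.91 TPM. WT5 had 193.49, 192.33, 202.45 and 190.69 TPM. The polyclonal mean was 0.572-fold that of WT5, and all 20 subclone libraries, between 108.12 and 163.72 TPM, lay below the 4 WT5 libraries. As for Cav1, every library of a subclone was thus below WT5, which held for 26.2%, 25.3%, 26.9%, 32% and 28.5% of all genes tested in subclones 1 to 5. From subclone 1 (155 TPM ± 8.28, SD, n = 4) through subclones 2, 5, 3 and 4 (120 TPM ± 5.32, SD, n = 4) to polyclonal WT cells (111 TPM ± 4.67, SD, n = 4), each neighbour in the order of means overlapped the next.

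Of the other cavins, Cavin2 (chr1:51289126-51302960), which binds phosphatidylserine, was close to 0 everywhere: polyclonal libraries held 0.06, 0.08, 0.06 and 0.06 TPM, and the 24 other libraries were listed at 0. Cavin3 (chr7:105480083-105482300, reverse strand), a protein kinase C delta binding protein, was low but differed between lines. Polyclonal libraries were listed at 0, 0, 0.04 and 0.05 TPM. WT5 libraries held 0.25, 0.33, 0.3 and 0.56 TPM. Subclone 3 held 0.37, 0.53, 0.6 and 0.3 TPM, within the range of WT5 or slightly above it, whereas the 16 libraries of the other 4 subclones were between 0 and 0.09 TPM. Every subclone 3 library was therefore above every library of the other subclones, at a level near 0 where the number of reads is unknown. Of the 11050 protein-coding genes with a mean of at least 1 TPM, 0.353% did so in subclone 3. Cavin3 lies below that level, and no share was computed for genes as low, so the separation is given as a description only. The longest Cavin3 transcript shares 325 of its 1613 stretches of 50 bases (20.1%) with the gene model Gm45667, so its reads may have been split between both.

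**Figure D2:**
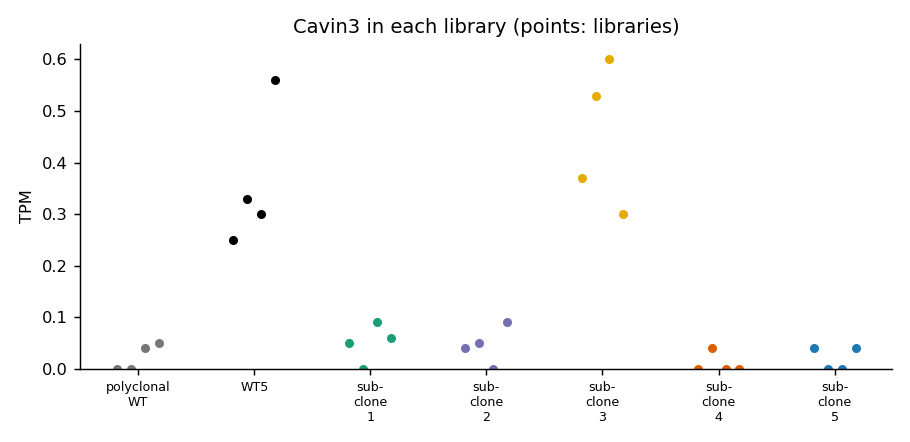
Cavin3 TPM (vertical axis, linear from 0) in each library of the 7 lines (horizontal axis), with 1 point per library. WT5 and subclone 3 libraries lie between 0.25 and 0.6 TPM, and all others between 0 and 0.09 TPM.

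Ehd2 (chr7:15946958-15967567, reverse strand), the neck ATPase, measured 5.21, 4.8, 5.07 and 4.72 TPM in polyclonal WT cells. It measured 17.94, 19.18, 18.67 and 18.87 TPM in WT5. The polyclonal mean was 0.265-fold that of WT5. Subclone 2 was the highest line, with 21.56, 19.23, 19.77 and 21.27 TPM, each above the 16 libraries of the other subclones and the 4 of WT5, the latter as in 14.2% of all genes tested. Subclones 1, 3, 4 and 5 overlapped each other, between 14.38 and 17.76 TPM. All libraries of these 4 subclones were below WT5, and subclone 4, where both caveolins were low, stood at 0.876-fold of WT5 in Ehd2.

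Pacsin2 (chr15:83375607-83464606, reverse strand), the F-BAR protein gene, varied least. Its means ran from 79.2 TPM ± 2.18 (SD, n = 4) in WT5 through 73.7, 70.8 (subclone 1), 68.6, 66.0 and 64.4 TPM in the subclones to 58.1 TPM ± 1.94 (SD, n = 4) in polyclonal WT cells. Each neighbour in this order overlapped the next down to subclone 4, whose lowest library was above the highest polyclonal one. As for Cav2, no share of all genes was computed for this separation.

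The comparison of WT5 with polyclonal WT cells addresses how far a clone departs from the culture it was taken from. On the log2(TPM) scale, the difference WT5 minus polyclonal was 2.83 ± 0.06 (SE, 95% interval 2.698 to 2.964) for Cav1, 1.92 ± 0.05 for Ehd2, 0.97 ± 0.05 for Cav2, 0.81 ± 0.05 for Cavin1 and 0.45 ± 0.04 for Pacsin2. The median over all 13723 genes tested was 0.24, so all 5 members lay above it. Cav3, Cavin2 and Cavin3 had a TPM of 0 in at least 1 library and were not tested. Of the 5, 5 had libraries that did not overlap and were higher in WT5, as were 48.5% of all genes. At an adjusted p below 0.01 in limma, 5 of 5 were higher, against 34.5% of all genes. Only Cav1 and Ehd2 also exceeded a log2 difference of 1, as did 17% of all genes in this direction. The thresholds of the study (adjusted p below 0.01 and a difference above 1 in z-score, here an 8.56-fold change) were passed by 0 of the 5 members and by 5.43% of all genes, with 5 of 5 below an unadjusted p of 0.05 in limma and 0 of 5 past these thresholds in the unequal-variance test as well. The 2 lines were sequenced at different times, polyclonal WT cells with short single-end reads and WT5 with longer paired-end reads, so sequencing and line cannot be told apart. Genes with TPM above 0 numbered 18681 to 19272 in polyclonal libraries and 16318 to 16536 in WT5.

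**Figure D3:**
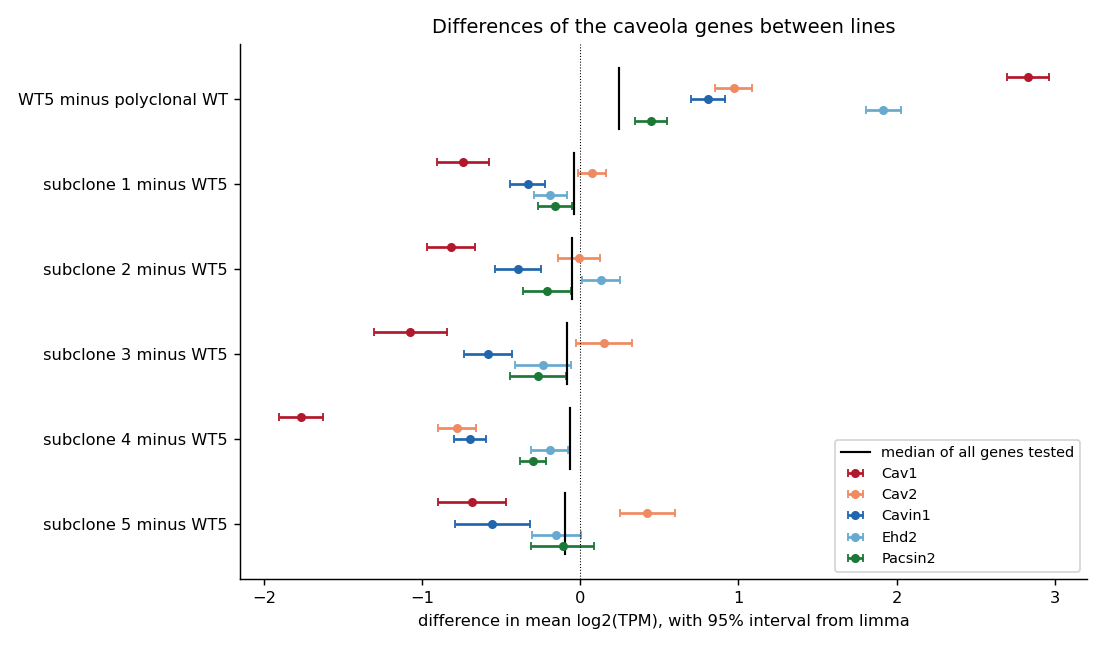
Difference in mean log2(TPM) (horizontal axis) for 5 members in 6 comparisons (vertical axis), with 95% intervals from limma and a black line at the median of all genes tested (n = 4 libraries per line). Cav1 lies farthest from that median in every comparison, at 2.83 between WT5 and polyclonal WT cells and at -1.77 between subclone 4 and WT5.

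The comparison of each subclone with WT5 asks how stable a monoclonal line is when it is cloned again. For Cav1, the log2 differences from WT5 in subclones 1 to 5 were -0.74 ± 0.07 (SE), -0.82 ± 0.07, -1.07 ± 0.10, -1.77 ± 0.06 and -0.68 ± 0.09, so it was lower in all of them. Cavin1 differed in the same direction, from -0.33 in subclone 1 to -0.70 in subclone 4. The Cav2 differences were 0.08 ± 0.04, -0.01 ± 0.06, 0.15 ± 0.08, -0.78 ± 0.05 and 0.42 ± 0.07 in subclones 1 to 5, so Cav2 stood near its WT5 level in 3 subclones, lower in subclone 4 and higher in subclone 5. Ehd2 lay between -0.24 and 0.13, and Pacsin2 between -0.30 and -0.11. The median over all 13860 genes tested lay between -0.10 and -0.04. WT5 and the subclones stand in separate tables and the 5 comparisons share the WT5 libraries, so table and cloning step cannot be told apart where all subclones differ from WT5 in the same direction.

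At an adjusted p below 0.01 in limma, 2, 3, 2, 4 and 3 of the 5 members passed in subclones 1 to 5, against 26.3%, 26%, 19.5%, 37.3% and 21.9% of all genes. Cav1 and Cavin1 were lower in each, joined by Cav2 and Pacsin2 in subclone 4, while Ehd2 was higher in subclone 2 and Cav2 in subclone 5. Because the members were chosen with their levels known, these calls describe the values and are not independent evidence of a difference. No member passed both thresholds of the study in any subclone (0 of 5, against 0.152%, 0.144%, 0.173%, 0.202% and 0.173% of all genes). At an unadjusted p below 0.05 there were 5, 3, 4, 5 and 3 members, and the unequal-variance test also gave 0 past both thresholds. These calls were made on z-scores. On log2 values without z-scores, Ehd2 in subclone 2 (0.13) no longer passed. Cav2 in subclone 5 did not pass after median centring (0.53). It also did not pass with genes above 0 TPM in any library and a pseudocount of 0.1 (z-score difference 0.142). By the unequal-variance test, Cav2 and Cavin1 no longer passed the adjusted p in subclone 5. With the replicate number as a block, Cavin1 in subclones 1, 2, 3 and 5, Pacsin2 in subclone 4, Ehd2 in subclone 2 and Cav2 in subclone 5 no longer passed, although the numbers did not pair the libraries. Some of these calls also changed when 1 library was left out. Without WT5 replicate 1, 3 or 4 or subclone 2 replicate 4, Ehd2 in subclone 2 no longer passed, at z-score differences of 0.0577, 0.0580, 0.0617 and 0.0563. Cav2 in subclone 5 did not pass without WT5 replicate 1 (0.192), WT5 replicate 4 (0.192) or subclone 5 replicate 3 (0.195). Cavin1 there did not pass without any 1 of the WT5 replicates (-0.125, -0.128, -0.122 and -0.131) or without subclone 5 replicate 3 (-0.126), and Ehd2 in subclone 1 passed once subclone 1 replicate 1 was left out (-0.0634).

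The balance between coat genes was compared as the ratio of TPM within each library, which is free of the scaling of a library to its total. Cav1 stood to Cav2 at 0.493 ± 0.0297 (SD, n = 4) in polyclonal WT cells and at 1.79 ± 0.0964 (SD, n = 4) in WT5. In the subclones the mean ratio was between 0.776 (subclone 3) and 1.02 (subclones 1 and 2), and in subclone 4 it was 0.903 ± 0.0569 (SD, n = 4). All 20 subclone libraries, from 0.575 to 1.12, lay between the polyclonal and the WT5 libraries without touching either. How often other gene pairs do so was not computed. The ratio does not remove the differences in sequencing between polyclonal WT cells and WT5 or between the tables, which cannot be told apart from those of the lines. Subclone 4 was inside the range of the other subclones in this ratio, since both of its genes were low. Cavin1 stood to Cav1 at 3.79 ± 0.166 (SD, n = 4) in polyclonal WT cells, at 0.932 ± 0.0444 (SD, n = 4) in WT5 and at 1.95 ± 0.0885 (SD, n = 4) in subclone 4. In the other 4 subclones the means ran from 1.02 to 1.31, with no library above 1.44, below the lowest subclone 4 library of 1.85.

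**Figure D4:**
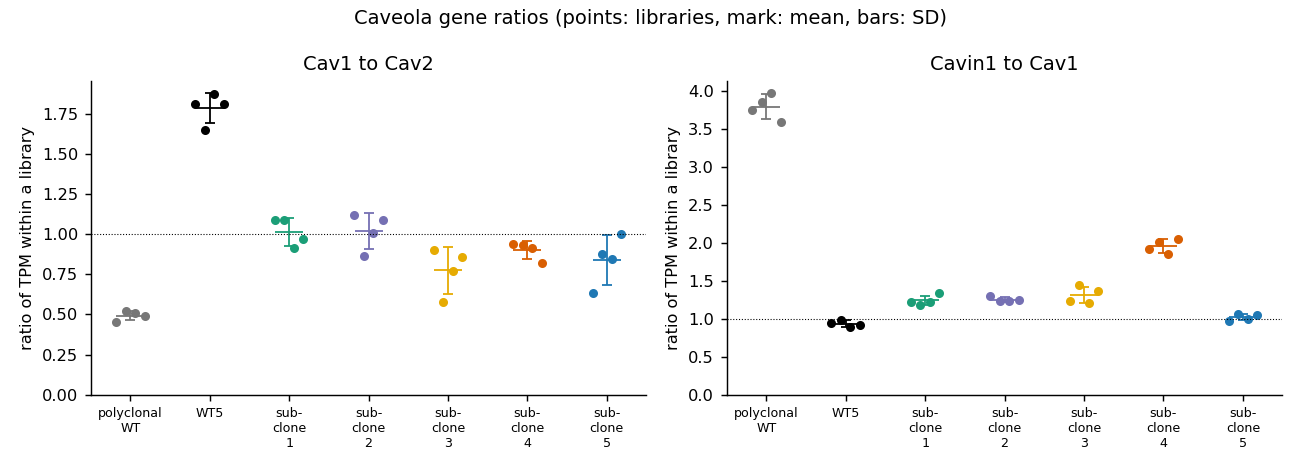
Ratio of Cav1 to Cav2 and of Cavin1 to Cav1 in TPM within a library (vertical axes, linear from 0) for the 7 lines (horizontal axes), with points for libraries, a mark for the mean, bars for the SD (n = 4) and a dotted line at a ratio of 1. Polyclonal WT cells have the lowest Cav1 to Cav2 ratio (0.493) and WT5 the highest (1.79), and subclone 4 has the highest Cavin1 to Cav1 ratio of the subclones (1.95).

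Between the subclones, all in 1 table, the range of the means on the log2 scale was 1.203 for Cav2, 1.08 for Cav1, 0.37 for Cavin1 and for Ehd2, and 0.19 for Pacsin2, against a median of 0.29 over all genes. By the limma F test, 4 of 5 members had an adjusted p below 0.01, Pacsin2 being the exception, as had 25% of all genes. On log2 values without z-scores Cavin1 (0.37) no longer passed, and after median centring Pacsin2 (0.20) did. Of the members, 0 of 5 passed and differed by more than 1 in z-score (0.635% of all genes). All 5 had an unadjusted p below 0.05 in this test, and the test without equal variances also gave 0 past both thresholds. Each subclone was then set against the other 4, a comparison chosen after the data had been seen, over the 11050 protein-coding genes with a mean of at least 1 TPM. In subclone 4, Cav1 was at 0.522-fold (log2 difference -0.94) and Cav2 at 0.521-fold (-0.94) of the others. All 4 libraries were below the other 16 for both genes, which held for 3.63% of the genes. In the same libraries Cavin1 (-0.23), Pacsin2 (-0.11) and Ehd2 (-0.08), on chromosomes 11, 15 and 7, overlapped the others. Ehd2 in subclone 2 was the only other case among these 5 members and 5 subclones in which libraries did not overlap, at 0.32 above the others (0.471% of the genes).

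Both genes that were low in subclone 4 share a position, and their neighbours were therefore examined. Of the 8 other protein-coding genes within 1 Mb of Cav1, 6 had a mean of at least 1 TPM, and 4 of these were below all 16 other libraries. They were Tes, a focal adhesion gene (log2 difference -0.41), Capza2, a subunit of the actin capping protein (-0.62), St7 (-0.49) and Cftr, the chloride channel (-5.76). Met, the hepatocyte growth factor receptor, lay at -0.36 with overlap, and the Wnt ligand gene Wnt2 at 0.33. Compared with WT5 by limma over all genes, Tes (adjusted p = 7.72e-05), Met (9.26e-05), Capza2 (0.000103), St7 (0.000119), Wnt2 (0.00300) and Cftr (6.29e-05) were lower in subclone 4, where 19.2% of all genes were lower by this rule. The means of Tes, Met, Capza2, St7 and Wnt2 were below WT5 in every subclone, a difference that cannot be told apart from that of the tables. For Wnt2 they were 4.98 TPM in WT5 and 1.58 to 3.86 TPM in the subclones. For Capza2 they were 146 TPM in WT5, 92.6 TPM in subclone 4 and 140 to 145 TPM in the other subclones. Cftr, at 0.02 to 0.08 TPM in subclone 4 and 1.73 to 3.76 TPM in the other subclones, was the only neighbour past both thresholds.

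The low level reached beyond these neighbours. Among the 42 genes of chromosome 6 from 13.9 Mb before to 8.44 Mb after the start of Cav1, leaving out Cav1 and Cav2 themselves, the median difference of subclone 4 from the other subclones was -0.53, and 30 of the 42 (71.4%) were below all other libraries. In the 122 genes from 10.9 to 34.9 Mb after it, the median was -0.01 and 2 (1.64%) were below. These limits were set after the values had been seen. Cav1 and Cav2 lay lower than their surroundings, as 80% of these 42 genes were between -0.70 and -0.21 and of the 42 only Cftr was lower than them. In subclones 1, 2, 3 and 5, each set against the other 3 without subclone 4, the median of the same genes was 0.02, 0.03, 0.0029 and -0.04. The median over genes of all chromosomes was -0.0042 in subclone 4, and on chromosomes 7, 11 and 15, which hold Ehd2, Cavin1 and Pacsin2, it was -0.01, -0.01 and -0.04. Cav3 lies 95153170 bases after Cav1, inside a further stretch with a low median (-0.54 from 50.2 to 114 Mb), but was listed at 0 in all subclones. What lowered this stretch was not tested.

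**Figure D5:**
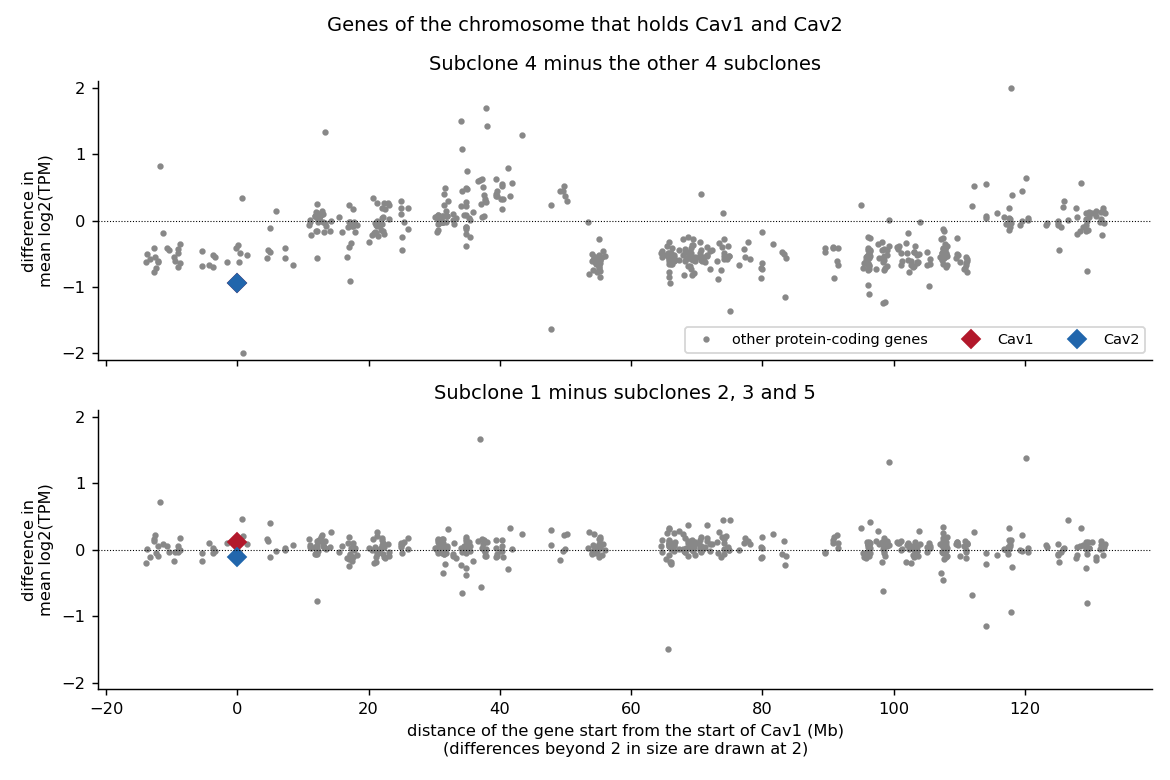
Difference in mean log2(TPM) between subclones (vertical axes) for genes of chromosome 6 with a mean of at least 1 TPM, by distance of their start from that of Cav1 in Mb (horizontal axis), for subclone 4 minus the other 4 (top) and subclone 1 minus subclones 2, 3 and 5 (bottom), with differences beyond 2 drawn at 2. In subclone 4, Cav1 and Cav2 (diamonds, both at -0.94) sit at the lower edge of a stretch with a median of -0.53, and in subclone 1 the same stretch has a median of 0.02.

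Likeness was described by Pearson's r of log2(TPM) over the 20 subclone libraries, 4 from each subclone, which share culture, library preparation and, in groups of 4, their clone. The genes most like Cav1 and Cav2 were all on chromosome 6, outside the 42 genes around Cav1 described above. Low values in subclone 4 were not limited to those 42 genes. The further stretch of chromosome 6 from 50.2 to 114 Mb after Cav1 had a median of -0.54. For Cav1 they were Bcl2l13 (0.964), Edem1 (0.964) and Mkrn2 (0.964), and for Cav2 Uba3 (0.959), Kcmf1 (0.950) and Suclg1 (0.941). Without the 4 libraries of subclone 4, a choice made after the data had been seen, these r were 0.804, 0.814 and 0.819 for Cav1 and 0.718, 0.749 and 0.671 for Cav2. Cav1 and Cav2 were alike at 0.83 over 20 libraries and at -0.00379 over the 16 without subclone 4, so that their likeness rested on that subclone. Cav2 and Cavin1 went from 0.270 to -0.700, and Cav1 and Cavin1 from 0.710 to 0.618. Cav1 rose with Pacsin2 from 0.653 to 0.819 and with Ehd2 from 0.360 to 0.411. Cav2 fell with Pacsin2 from 0.287 to -0.147 and with Ehd2 from -0.031 to -0.554. The genes most like Cavin1 were Lmna (0.955), Dusp4 (0.947) and Foxp1 (0.944), on chromosomes 3, 8 and 6, and remained at 0.945, 0.929 and 0.937 without subclone 4. Ehd2 was most like Pcdh19 (0.908), Macc1 (0.907) and Samd4 (0.883), and Pacsin2 most like Ncaph (0.958), Scarb1 (0.954) and Selenon (0.951).

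The surrounding machinery was read from a list of 53 genes that are not members: paralogues, partners in membrane fission and actin linkage, receptors and enzymes found in caveolae, flotillins, the clathrin route and regulators of transcription. Between WT5 and polyclonal WT cells 47 were tested, and 33 had an adjusted p below 0.01 in limma, 24 higher and 9 lower in WT5, as had 65.5% of all genes (34.5% higher and 30.9% lower), with a median log2 difference of 0.47 against 0.24 over all genes. None passed both thresholds of the study (0 of 47 in limma and in the unequal-variance test, 38 at an unadjusted p below 0.05). Of 5 paralogues of the members tested, 4 were higher, among them Ehd4 from 14.8 to 46.2 TPM and Pacsin3 from 24.6 to 66.7 TPM. These counts are read against the 34.5% of all genes that were higher. All 3 genes of flotillins and stomatin, which mark other membrane domains, were higher, with Flot1 going from 32.8 to 91.5 TPM. The clathrin route, a separate path of endocytosis, was mixed, with 6 higher and 7 lower of 17. Its clathrin heavy chain gene Cltc went from 155 to 105 TPM and the dynamin gene Dnm1 from 39.4 to 16.8 TPM, the latter being the largest fall of those tested (log2 difference -1.22, limma adjusted p = 1.19e-06). The largest rise among the 47 tested was that of Nos3, the endothelial nitric oxide synthase that caveolin-1 binds, at low levels of 0.09 and 0.745 TPM (3.14, limma adjusted p = 3.77e-05). Ror1, a receptor that binds caveola proteins, was not tested because of polyclonal libraries listed at 0, and it had 0 to 0.01 TPM there and 0.49 to 0.7 TPM in WT5. Flna, the filamin that ties caveolae to actin, fell from 286 to 124 TPM.

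In the subclones 48 genes of this list were tested against WT5. At an adjusted p below 0.01 in limma, 5, 6, 2, 5 and 4 were higher and 10, 11, 10, 17 and 7 lower in subclones 1 to 5. In total these were 15, 17, 12, 22 and 11 of 48, against the 26.3%, 26%, 19.5%, 37.3% and 21.9% of all genes given above. None (0 of 48) passed both thresholds in limma or the unequal-variance test, with 32, 31, 24, 32 and 22 at an unadjusted p below 0.05. The paralogues Ehd1 and Ehd4, the kinase gene Src, which phosphorylates caveolin-1, and Dnm1 were lower and Cltc higher in all 5. Ehd1, for example, was at 107 TPM ± 5.01 (SD, n = 4) in WT5 and between 57.9 and 68.9 TPM in the subclones. The clathrin light chain gene Cltb went the other way from Cltc, with means of 59.5 TPM in WT5 and 33.1 to 38.9 TPM in the subclones. Differences from WT5 shared by all subclones cannot be told apart from those of the tables. The largest rises were of Dnm3 in subclones 1 (log2 difference 0.79, limma adjusted p = 0.000324) and 4 (0.66, 0.00860) and of Cltc in subclones 2 (0.38, 0.000219), 3 (0.28, 0.00330) and 5 (0.31, 0.00211). The largest falls were of Nos3 in subclone 1 (-0.77, limma adjusted p = 0.00235), Ehd1 in subclone 2 (-0.80, 0.000648), Pacsin1 in subclones 3 (-2.02, 0.00135) and 4 (-2.60, 0.000523), and Ror1 in subclone 5 (-0.79, 0.000538). Pacsin1, the neuronal paralogue of Pacsin2, also differed most of the list between subclones, from 0.125 TPM ± 0.0473 (SD, n = 4) in subclone 4 to 0.677 TPM ± 0.184 (SD, n = 4) in subclone 5 (limma adjusted p = 0.000971). Among the subclones 10 of 48 had an adjusted p below 0.01, against 25% of all genes, 25 had an unadjusted p below 0.05, and 0 passed both thresholds.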

How the data were processed

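RNA sequencing values of 28 mIMCD-3 libraries were used as deposited by the authors, in TPM. Per the labels and methods, reads were processed with CASAVA 1.8, aligned to GRCm38 with STAR 2.7.3a and quantified per gene with RSEM 1.3.1. The 2 tables hold all genes without a filter, one with polyclonal WT and WT5 libraries and one with the subclones, and were joined by gene identifier. TPM keeps no depth, and the lowest value above 0 is 0.01.

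Z-scores of log2(TPM), with no pseudocount, were taken per library over genes with TPM above 0 in all libraries compared (13723, or 13860 for WT5 and the subclones). Groups were compared by two-sided limma 3.58.1 in R 4.3.3 with Benjamini-Hochberg adjustment over all genes, after tests on simulated data. The unequal-variance test, which the methods name, was an alternative, as were other scales, thresholds, filters and pseudocounts, a replicate block and each library left out in turn. Same-numbered libraries did not deviate together in any pair of lines (not every r over 0.1), so numbers were not taken as pairs. Two-group fits held only the libraries compared.

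The members and gene lists were chosen with earlier results of these data known, so members are given with errors and without printed p-values. Their calls by a p threshold are a description. Named were all 8 members, the partner genes with the largest rise and fall past an adjusted p of 0.01 and those needed to state a count, the 3 genes most like each member, and the protein-coding genes within 1 Mb of Cav1. Tes, Met, Capza2, St7, Wnt2 and Cftr fall under the last. Other genes (Flna, Src, Cltb, Cdh1, Aqp2) were named after their values were seen. Positions come from GENCODE M21 on GRCm38, which lists 45143 of the 45706 genes, and upstream sequences from RefSeq on GRCm38.p6, in which 7 of 8 members matched (not Cavin3). Tables and figures were made in Python 3.11.15 (pandas 2.3.3, numpy 2.4.6, matplotlib 3.10.9).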

Additional observations from a re-analysis of the deposited data

Results flagged for a closer look

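Among 44 groups of 4 libraries of member values looked at, 4 held a library far from the other 3 by Dixon's criterion, which chance gives in about 1 of 20 groups. These were Cav3 in WT5 replicate 1 (0.04 TPM, the other 3 at 0), Cavin2 in polyclonal replicate 2 (0.08 TPM), Cavin3 in subclone 4 replicate 2 (0.04 TPM) and Ehd2 in subclone 4 replicate 4 (14.98 TPM). The first 3 lie near the lowest value that the tables can hold.

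In 2 members all libraries of some subclones lay above WT5 and all of others below it, and the difference was not tested. Of all 13860 genes tested, 583 (4.21%) showed such a pattern. Cav2 was higher in subclone 5 (log2 difference from WT5 0.42) and lower in subclone 4 (-0.78). Ehd2 was higher in subclone 2 (0.13) and lower in subclones 1 (-0.19), 3 (-0.24), 4 (-0.19) and 5 (-0.15).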

How the results depend on the processing

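The thresholds decided how many members were counted, all of which were 0 of 5 under the rule of the study. For WT5 against polyclonal WT cells, 1 member passed when a pseudocount of 1 was added, and 1 when genes below a mean of 1 TPM were left out. There 2 passed with a log2 difference above 1 in place of the z-score, 2 after centring on the median and 5 without a threshold on the difference. Without that threshold 2, 3, 2, 4 and 3 members passed in subclones 1 to 5 and 4 among the subclones. A log2 difference above 1 gave 1 in subclone 3, 1 in subclone 4 and 2 among the subclones, and median centring gave 1 in subclone 4 and 2 among the subclones. Of the partner list, also 0 under the rule, these 3 settings gave 12 (log2), 9 (centred) and 33 (no threshold) for WT5 against polyclonal WT cells, 2, 2 and 12 for subclone 3, 1, 1 and 22 for subclone 4, and 3, 3 and 10 among the subclones. Without a threshold there were 15, 17 and 11 in subclones 1, 2 and 5. Leaving out single libraries, counts of members and partners ranged from 0 to 0.

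Of the differences of single members, 710 values under planned settings kept direction and side of the adjusted p threshold. A further 12 came to pass it, 25 no longer passed it and 3 turned direction. The threshold was 0.01, except in the setting that raised it to 0.05. Among the 12 were Cav2 in subclones 1 and 3, Ehd2 in subclones 1, 3 and 4 and Pacsin2 among the subclones under that looser threshold. Cav2 in subclone 2 was at -0.0055 on the log2 scale without z-scores (0.0391 in z-score), and Pacsin2 in subclone 5 at -0.11 on that scale and at -0.00597 after median centring (0.0112 in z-score). The cause was not tested. With the replicate number as a block, Cavin1 in subclones 1, 2, 3 and 5 (z-score differences -0.0785, -0.0843, -0.133 and -0.126), Ehd2 in subclone 2 (0.0602), Pacsin2 in subclone 4 (-0.0607) and Cav2 in subclone 5 (0.195) no longer passed, and counts past both thresholds stayed at 0. By the unequal-variance test, Cav2 and Cavin1 in subclone 5 no longer passed. The same held for Ehd2 in subclone 2 on log2 values without z-scores (0.13). It held for Cav2 in subclone 5 after median centring (0.53), and with genes above 0 TPM in any library and a pseudocount of 0.1 (0.142). In subclone 4 against the other subclones, 23 alternatives added after the data had been seen (each library left out, subclone 3 or 5 left out, TPM rescaled to nuclear protein-coding genes) gave -1.02 to -0.89 for Cav1, -0.96 to -0.85 for Cav2 and -0.56 to -0.53 for the stretch of chromosome 6 that holds them. TPM gives no depth, so members near 0 (Cav3, Cavin2, Cavin3) could not be given a counting error.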

Other observations

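Other parts of chromosome 6 in subclone 4 differed from the other subclones in both directions, in spans chosen after the values had been seen. In the 37 genes from 35.2 to 49.9 Mb after the start of Cav1 the median log2 difference was 0.37, with 22 genes above all other libraries. In the 266 genes from 50.2 to 114 Mb after it the median was -0.54, with 198 below all other libraries (74.4%). In the 55 genes from 116 to 132 Mb it was 0.01. Against WT5, the medians of subclone 4 were -0.57 in the stretch that holds Cav1, 0.42 from 35.2 to 49.9 Mb and -0.66 from 50.2 to 114 Mb. Of the other chromosomes, chromosome 12 had a median of 0.38 over 385 genes.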
